A study of Mus musculus with 12 samples.

Results

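Gm25679, Gm24305, Gm22513 and Gm23804 are 4 genes for small nuclear RNA (snRNA) that lie in 1 cluster on chromosome 12 of the mouse. They were selected by name from the 20792 genes listed in each library, because they were the 4 snRNA genes with a lower level on high-salt diet (HSD) than on normal diet (ND) at an adjusted p under 0.05 in mice without stroke. That diet contrast therefore describes them and cannot test them. The annotation gives 121 of the listed genes as snRNA, and 7 of those stand in the cluster on chromosome 12, so that 3 cluster genes (Gm22634, Gm26444 and Gm22317) are not among the 4.

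RNA was sequenced in bulk from hematopoietic stem and progenitor cells (HSPCs) of wild-type mouse bone marrow, sorted as cells without lineage antigens and CD127 that carry c-kit and Sca-1. The 12 libraries form 4 groups of 3. HSD ICHD7 mice ate chow with 8% NaCl and drank water with 1% NaCl for 8 weeks, then received an intracerebral blood injection as a model of intracerebral hemorrhage (ICH) and were killed at day 7, having gone back to ND after the injection by the study's account. ND ICHD7 mice ate chow with 0.5% NaCl for 8 weeks before the same injection. HSD and ND mice had the same diets with no injection. The labels give no age, and ND and HSD libraries each hold cells pooled from several animals. Values are CPM (read counts scaled to a common library size), with the library size adjusted by the trimmed mean of M-values (TMM). Every copy in the cluster is 164 bases long, so length does not set their CPM apart, but copies with the same sequence can share reads.

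U1 snRNA is the RNA core of the U1 small nuclear ribonucleoprotein, which marks the 5′ splice site of introns at the start of spliceosome assembly by base pairing through its own 5′ end. Its genes come in many copies, are transcribed by RNA polymerase II from a dedicated promoter bound by the SNAPc complex, and make a short transcript with no poly(A) tail that the Integrator complex cuts. The RNA is exported, receives a ring of Sm proteins from the SMN complex on its Sm site, and returns to the nucleus. U1 also protects nascent transcripts from early cleavage and polyadenylation. In HSPCs, as in other cells, it is counted among the housekeeping RNAs.

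By sequence all 4 genes are U1 copies. The annotated transcripts of Gm25679 (chr12:54719163-54719326, minus strand, GRCm38) and Gm23804 (chr12:54714218-54714381, plus strand) were identical to each other and to Rnu1a1, annotated as U1a1 snRNA on chromosome 11. Gm24305 (chr12:54734555-54734718, minus strand) differed from Rnu1a1 by the single substitution A26G, and Gm22513 (chr12:54696782-54696945, plus strand) by T60C, with positions counted from 1 at the 5′ end and the Rnu1a1 base first. The 3 distinct sequences are shown because they tell how far reads can separate the copies. Sequences are GENCODE M21 transcripts, 5′ to 3′. Capitals in the first mark the stretch ACTTACCTG that pairs with the 5′ splice site and the Sm site AATTTGTGG, and capitals in the other two mark the substituted base.
Gm25679 and Gm23804: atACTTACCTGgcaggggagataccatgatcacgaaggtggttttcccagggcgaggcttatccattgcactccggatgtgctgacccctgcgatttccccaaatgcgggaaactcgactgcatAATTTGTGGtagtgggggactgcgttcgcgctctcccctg
Gm24305: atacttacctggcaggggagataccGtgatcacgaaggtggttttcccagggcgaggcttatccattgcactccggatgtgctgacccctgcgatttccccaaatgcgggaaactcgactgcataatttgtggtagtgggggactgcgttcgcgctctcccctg
Gm22513: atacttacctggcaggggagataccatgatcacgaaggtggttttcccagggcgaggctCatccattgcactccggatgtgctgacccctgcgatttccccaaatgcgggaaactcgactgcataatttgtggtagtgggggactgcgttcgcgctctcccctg

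The stretch ACTTACCTG began at position 3 and the Sm site at position 125 in every copy of the cluster, so that neither substitution touched them. Among 1383 annotated mouse snRNA genes, ACTTACCTG was present in 3.98% and AATTTGTGG in 4.70%. In the first 164 bases of 135350 annotated transcripts, searched on both strands, the shares were 0.108% and 0.127%. A match of letters is a description of the sequence and not of binding.

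The sequence of Gm25679 was shared by 7 annotated genes, of which 5 lie in the cluster and the others, Rnu1a1 and Gm22068, on chromosome 11. A read that lies inside one of these genes fits all 7 of them, and the treatment of such reads in counting is not given in the sources used here. The CPM of single copies is therefore uncertain, and Gm24305 and Gm22513 are set apart from the rest by 1 base each. At 95% identity or more to one of the 4 genes, 23 annotated snRNA genes were found, 18 of them listed, of which 14 were other U1 copies than the 4. No other listed gene overlapped the 4. The nearest listed genes outside the snRNA cluster are Eapp, which encodes an E2F-associated phosphoprotein, 885 bases from Gm22513, and Snx6, which encodes a sorting nexin of the retromer.

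Libraries differed in ways that touch these values. The reads in listed genes numbered between 8678304 and 15469971 in 11 libraries and 27491973 in HSD ICHD7 replicate 3. The sum over 9 genes of the neutrophil lineage was 4737, 3893 and 12406 CPM in HSD ICHD7 replicates 1, 2 and 3, against 3369, 2817 and 2157 CPM in ND ICHD7, and 1249 to 2184 CPM without ICH. Nearly all of it was Mpo and Elane, genes for granule enzymes that granulocyte progenitors already express, with Mpo at 4314, 3534 and 11011 CPM in HSD ICHD7, against 3064, 2562 and 1989.7 CPM in ND ICHD7. Genes of later neutrophil stages did not follow in HSD ICHD7 replicate 3, where S100a8 was the highest of all libraries at 22.4 CPM but Ngp was at 8.99 CPM, Camp at 2.06 CPM, Ltf at 7.04 CPM and Retnlg at 0.578 CPM, within the range of the other libraries. The sum over 9 HSPC markers was 1336, 1315 and 884 CPM in HSD ICHD7, against 1415, 1393 and 1412 CPM in ND ICHD7, and 1479 to 1613 CPM without ICH. Neither sum overlapped between the diets after ICH. Over 14 macrophage genes, HSD replicate 2 had 996 CPM and ND replicate 1 had 557 CPM, against 97.1 to 221 CPM elsewhere. All 9 HSPC markers were detected in every library, although Ly6a, which encodes the sort marker Sca-1, reached only 2.42 to 6.72 CPM. Of the 9 lineage genes of the sort 6 were listed, and they summed to 39.1 to 70.0 CPM. Libraries with ICH had 2 to 29 listed genes with no read, against 1393 to 1755 in libraries without ICH, so that a difference in library making or sequencing cannot be told apart from ICH in any comparison between them.

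Across the 4 groups the copies kept 1 order of levels. Each of the 4 was lowest on average in HSD ICHD7, then higher in ND ICHD7, in HSD and in ND. Gm25679 had the highest CPM of the 4 in 11 of 12 libraries and Gm23804 in the remaining one, HSD ICHD7 replicate 3. Gm23804 had rank 2 of the 4 in 11 libraries, Gm24305 had rank 3 in all 12, and Gm22513 was the lowest of the 4 in all 12. Between 1030 and 30953 reads lay behind each value, so the error of counting is small beside the spread between libraries. In bulk RNA, fewer cells that carry an RNA and less of it per cell cannot be told apart.

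Gm25679 had 310.1, 437 and 156 CPM in HSD ICHD7 replicates 1, 2 and 3, against 867, 339 and 514 CPM in ND ICHD7. It had 1164, 1053 and 1141 CPM in HSD libraries, against 2032, 1708 and 1964 CPM in ND libraries. Without ICH the diets did not overlap, while after ICH the HSD ICHD7 library with the highest level exceeded the ND ICHD7 library with the lowest. Group means were 301 ± 141 CPM in HSD ICHD7, 573 ± 269 in ND ICHD7, 1119 ± 59.0 in HSD and 1902 ± 171 in ND (SD, n = 3 each).

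Gm23804, with the same sequence, had 277, 341 and 168 CPM in HSD ICHD7, against 808, 296 and 423 CPM in ND ICHD7. Without ICH it had 903, 588 and 783 CPM in HSD, against 1567, 1262 and 1393 CPM in ND. It was the only one of the 4 for which a library with ICH, ND ICHD7 replicate 1, lay inside the range of the HSD libraries. Its means were 262 ± 87.7 CPM in HSD ICHD7, 509 ± 267 in ND ICHD7, 758 ± 159 in HSD and 1408 ± 153 in ND (SD, n = 3 each).

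Gm24305, the copy with A26G, had 149.7, 213 and 101 CPM in HSD ICHD7, against 424, 167 and 218 CPM in ND ICHD7. Without ICH it had 497, 466 and 472 CPM in HSD, against 792, 719 and 1002 CPM in ND. The HSD libraries were the tightest group of the 4, at 478 ± 16.5 CPM, and the other means were 155 ± 56.2 CPM in HSD ICHD7, 269.8 ± 136 in ND ICHD7 and 838 ± 147 in ND (SD, n = 3 each).

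Gm22513, the copy with T60C at the outer edge beside Eapp, had 70.3, 99.3 and 53.8 CPM in HSD ICHD7, against 199, 87.1 and 93.5 CPM in ND ICHD7. Without ICH it had 299, 236 and 281 CPM in HSD, against 604, 418 and 611 CPM in ND. Its means were 74.5 ± 23.1 CPM in HSD ICHD7, 127 ± 62.9 in ND ICHD7, 272 ± 32.4 in HSD and 544 ± 109.6 in ND (SD, n = 3 each). As for the other copies, ND ICHD7 replicate 1 was the highest library with ICH and HSD ICHD7 replicate 3 the lowest.

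**Figure D1:**
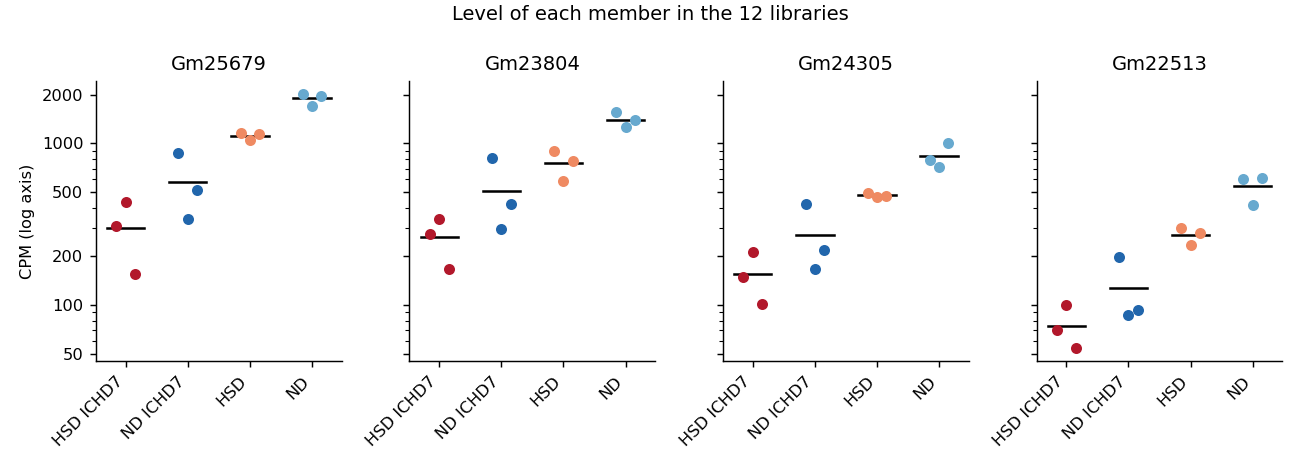
CPM on a log axis of the 4 U1 genes in each of the 12 libraries (points, 3 per group), with the group mean as a line. For Gm25679 the HSD points (1053 to 1164 CPM) lie below the ND points (1708 to 2032 CPM), while the HSD ICHD7 points (156 to 437 CPM) overlap the ND ICHD7 points (339 to 867 CPM).

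The comparison HSD ICHD7 against ND ICHD7 rests on libraries that took no part in choosing the genes, and it shares none with HSD against ND. All 4 genes had a lower mean in HSD ICHD7, at 51.5% (Gm23804), 52.5% (Gm25679), 57.3% (Gm24305) and 58.9% (Gm22513) of the ND ICHD7 mean. The Mpo-led sum was higher and the HSPC marker sum lower in all 3 HSD ICHD7 libraries than in all 3 ND ICHD7 libraries, and the part of either in the difference was not tested. In limma's moderated test over 20079 genes, the log2 fold change was −0.95 for Gm25679 (SE 0.397, adjusted p = 0.302) and −0.89 for Gm23804 (SE 0.355, adjusted p = 0.291). In the same limma test Gm24305 was at −0.75 (SE 0.3435, adjusted p = 0.326) and Gm22513 at −0.70 (SE 0.313, adjusted p = 0.3205). Log2 fold changes here are on the log2(CPM + 0.5) scale, and the adjustment is that of Benjamini and Hochberg over all genes tested.

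No gene of the 4 passed an adjusted p under 0.05 in limma, nor did any of all genes (0 of 20079 lower, 0%), although 3134 genes had an unadjusted p under 0.05. By edgeR's quasi-likelihood test on recovered reads 0 genes passed, and by DESeq2 98 did, with none of the 4 among them under either tool. With p unadjusted and under 0.05, 2 of the 4 were lower (Gm25679 and Gm23804), read against 10.2% of all genes. These 2 have the same sequence and can share reads, so they are not separate measurements. None of the 4 was lower in every HSD ICHD7 library than in every ND ICHD7 library, against 13.3% of all genes. The count with p unadjusted and under 0.05 depended on single libraries. It was 0 without ND ICHD7 replicate 1, HSD ICHD7 replicate 1 or HSD ICHD7 replicate 3, 1 without ND ICHD7 replicate 3, and 4 without ND ICHD7 replicate 2 or HSD ICHD7 replicate 2. In those fits 1200 to 2621 genes were lower by the same threshold, of 19498 to 19912 tested. Without ND ICHD7 replicate 1 the log2 fold changes were −0.59 (Gm25679), −0.49 (Gm23804), −0.37 (Gm24305) and −0.32 (Gm22513). Without HSD ICHD7 replicate 3, the library with the highest Mpo and Elane, they were −0.53, −0.60, −0.48 and −0.49 for the same genes.

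Without ICH the same 4 genes were lower on HSD by the choice that put them here. Their HSD means were 58.9% (Gm25679), 57.1% (Gm24305), 53.9% (Gm23804) and 50.02% (Gm22513) of the ND mean, with log2 fold changes of −0.76, −0.80, −0.91 and −0.98 in that order. The rule fixed that all 4 are among the 11 genes (0.0655%) lower at an adjusted p under 0.05 in limma. All 4 were also lower in every HSD library than in every ND library, as were 5.75% of all 16787 genes. Of the 4 genes Gm23804 stood nearest the adjusted p of 0.05 that chose them. Just outside in limma stood the U1 copies Gm22317 at an adjusted p of 0.0769, Gm22634 at 0.0772 and Gm22068 at 0.0772. Gm22317 and Gm22634 lie in the same cluster. By size of change the snRNA gene next above the 4 was Gm24407, which is no U1 copy, at −0.76 with 7.27 CPM in HSD and 12.5 CPM in ND. Further snRNA genes with a lower log2 fold change than Gm25679 were Rnu1b2, a U1b gene, at −1.42, Rnu5g, a U5 gene, at −0.88, and Gm25313 at −0.83, all at means under 10 CPM over the 12 libraries and named after their values were seen. Without ND replicate 1 and HSD replicate 2, the libraries with the high macrophage genes, the log2 fold changes were −0.67 (Gm25679), −0.81 (Gm24305), −0.66 (Gm23804) and −0.80 (Gm22513).

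Between mice with and without ICH the 4 genes are described only. In ND ICHD7 their means were between 23.3% (Gm22513) and 36.2% (Gm23804) of the ND mean, and in HSD ICHD7 between 26.9% (Gm25679) and 34.6% (Gm23804) of the HSD mean. All 4 were lower in every ND ICHD7 library than in every ND library, as were 14.3% of all genes, and all 4 in every HSD ICHD7 library than in every HSD library, as were 14.5%. The libraries without ICH took part in choosing the genes, and the libraries with ICH are those with nearly no gene at 0.

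Summed over the 4 genes, the level was 792 ± 306 CPM in HSD ICHD7, 1479 ± 732 in ND ICHD7, 2628 ± 264 in HSD and 4691 ± 506 in ND (SD, n = 3 each). Of all reads in listed genes the 4 held 0.0482% in the lowest library, HSD ICHD7 replicate 3, and 0.537% in the highest, ND replicate 3. They held between 28.9% and 39.8% of the CPM of all 121 listed snRNA genes in the 12 libraries.

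The copies moved together. Over the 6 libraries with ICH, Pearson's r between log2 levels of any pair of the 4 was 0.947 to 0.992 and Spearman's rho 0.943 to 1 (6 pairs, n = 6, two-sided exact permutation p = 0.00278 to 0.00833 for r and 0.00278 to 0.0167 for rho, adjusted over the 6 pairs 0.00556 to 0.00833 and 0.00556 to 0.0167). With the 2 libraries farthest from the median left out, HSD ICHD7 replicate 3 and ND ICHD7 replicate 1, r was 0.706 (Gm22513 and Gm23804) to 0.981 (Gm25679 and Gm23804). With the diet means removed r was 0.915 to 0.990, so that the copies deviated together also within a diet. The permutations ran across both diets, so the p-values take in the diet difference, and r with the diet means removed was not tested. Over the 6 libraries without ICH, where the choice of the genes sets the groups apart, r was 0.894 to 0.984, and 0.257 (Gm24305 and Gm23804) to 0.982 (Gm25679 and Gm22513) with the diet means removed. Near-identical sequences that can share reads, and 1 library size per library, stand behind every point. The p-values therefore cannot show that the copies vary together as separate genes.

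**Figure D2:**
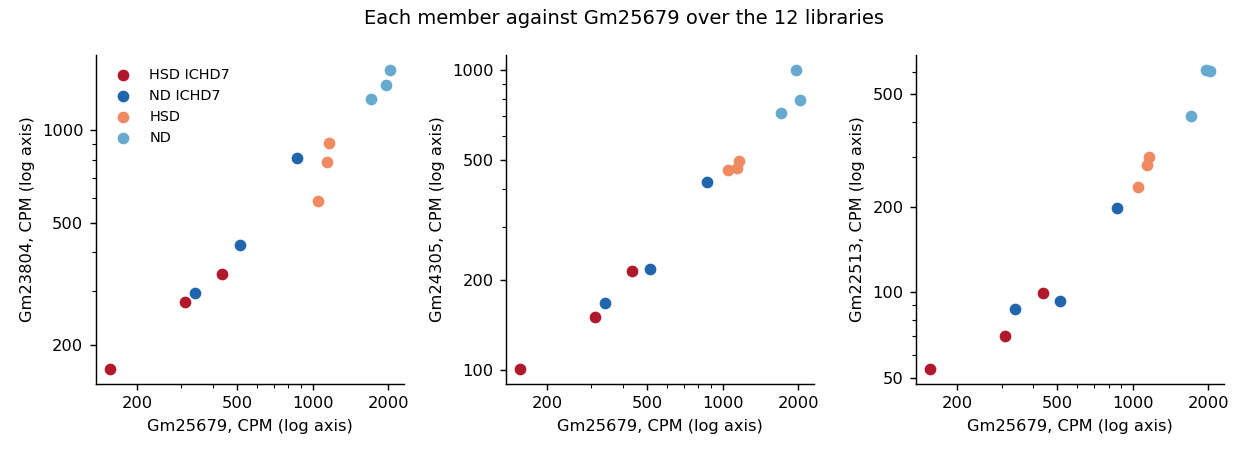
CPM of Gm23804, Gm24305 and Gm22513 (log axes) against CPM of Gm25679 in each of the 12 libraries, coloured by group. The points run along 1 line in each panel, with HSD ICHD7 replicate 3 at the lower end (156 CPM of Gm25679) and the ND libraries at the upper end (1708 to 2032 CPM).

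The proportions between copies were steadier than their levels. Of the CPM of the 4, Gm25679 held 39.8 ± 3.05% over the 12 libraries, Gm23804 31.6 ± 3.04%, and Gm24305 18.5 ± 1.47% (SD, n = 12), and Gm22513 held 7.49 to 12.3%. Gm25679 and Gm23804 have the same sequence, yet Gm25679 had the higher level in 11 libraries, by a ratio of 1.07 to 1.79, and in HSD ICHD7 replicate 3 the ratio was 0.929. The ratio of Gm25679 to Gm24305 was 1.54 to 2.56 and that to Gm22513 2.90 to 5.50. Gm24305 over Gm22513 was 1.88 to 2.33 in the libraries with ICH, 1.66 to 1.97 in HSD and 1.31 to 1.72 in ND.

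All 7 copies of the cluster showed the order of groups that the 4 showed. The 3 others are identical to Gm25679 in sequence. Gm26444 averaged 207 ± 122 CPM in HSD ICHD7 and 469.8 ± 228 in ND ICHD7, and 793 ± 123 in HSD and 1178 ± 252 in ND. Gm22317 averaged 188 ± 119.6 in HSD ICHD7 and 377 ± 159 in ND ICHD7, and 853 ± 63.3 in HSD and 1262 ± 142 in ND. Gm22634 averaged 129.9 ± 83.7 in HSD ICHD7 and 307 ± 149 in ND ICHD7, and 563 ± 124 in HSD and 903 ± 47.8 in ND (SD, n = 3 each). The copies with the highest means over the 12 libraries, Gm25679 on the minus strand and Gm23804 on the plus strand, are next to each other in the cluster.

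**Figure D3:**
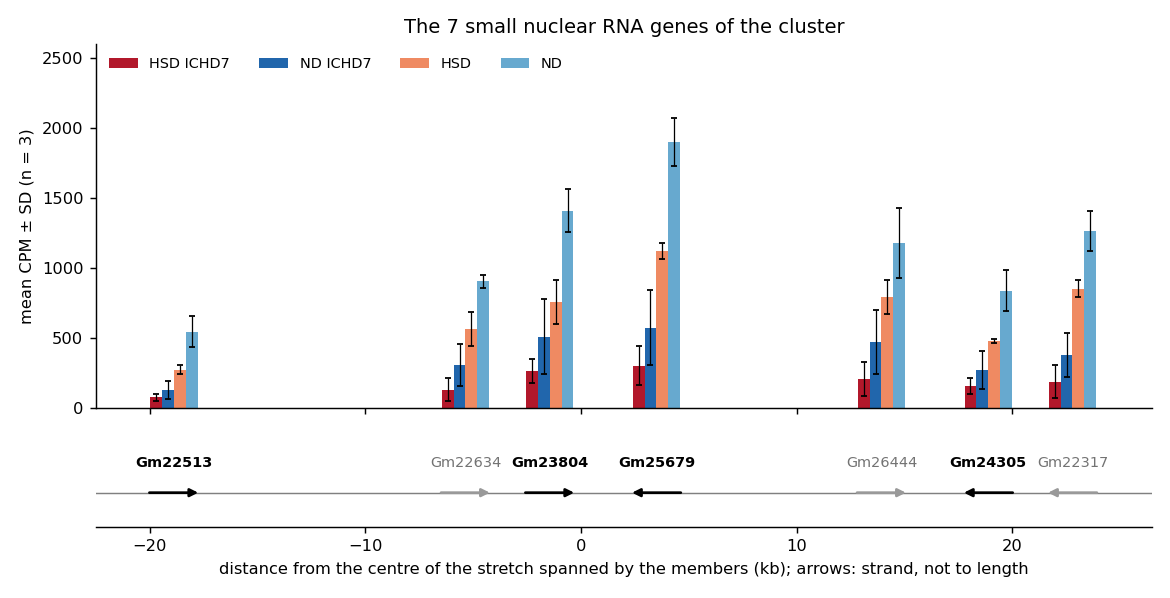
Mean CPM (bars, error bars SD of 3 libraries) of the 7 snRNA genes of the cluster in each group, at their distance from the centre of the stretch that the 4 U1 genes span, with arrows for the strand and the 4 genes in black. ND bars are the highest at every copy, from 544 CPM at Gm22513 to 1902 CPM at Gm25679.

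HSD ICHD7 replicate 3 departed from the common proportions. The CPM of the 4 genes over that of the 3 other cluster copies was 3.08 in this library, and 1.12 (HSD replicate 1) to 1.67 (ND replicate 1) in the other 11. The 3 other copies were at 33.8 CPM (Gm22634), 54.0 CPM (Gm22317) and 67.3 CPM (Gm26444) in HSD ICHD7 replicate 3, all below Gm24305 at 101 CPM. In that library Gm25679 held 24.6% of the reads of the 7 cluster genes (exact 95% interval 24.0 to 25.2%), close to its 21.1 to 25.4% over all libraries, while Gm22317 held 8.52% (8.11 to 8.95%). Such intervals cover counting error only.

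**Figure D4:**
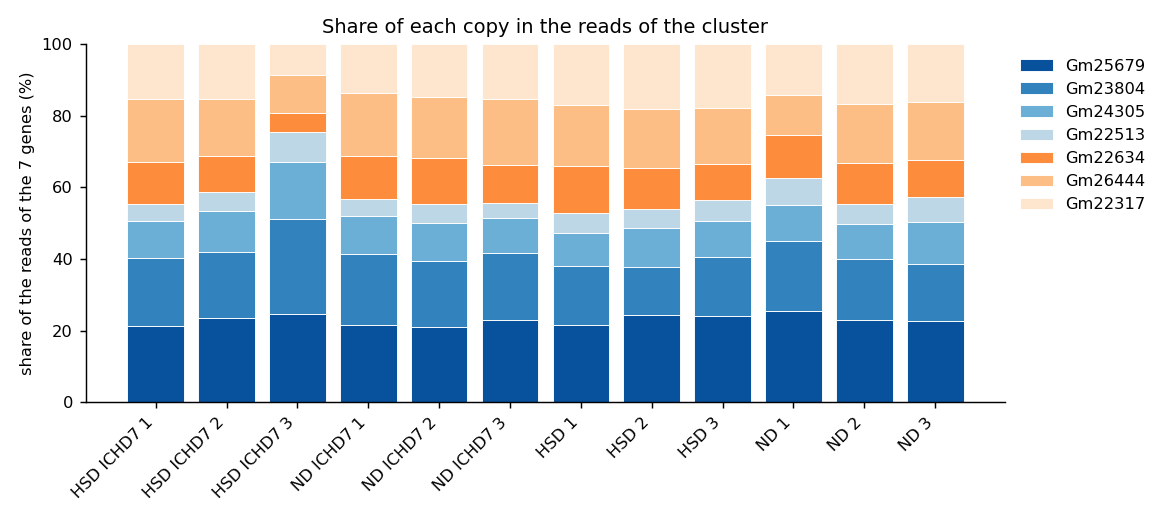
Share of each of the 7 snRNA genes in the reads of the cluster (%, stacked bars) in each of the 12 libraries, the 4 U1 genes in blue and the 3 others in orange. In HSD ICHD7 replicate 3 Gm22317 held 8.52% and Gm22634 5.34%, against up to 18.3% and 13.0% elsewhere.

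The other U1 copies were lower along with the 4. Summed over the 14 that are listed, they had 870.4 ± 456 CPM in HSD ICHD7 and 1870.3 ± 853 CPM in ND ICHD7, and 3686 ± 393 CPM in HSD and 5409 ± 178 CPM in ND (SD, n = 3 each). All 14 had a negative log2 fold change in HSD ICHD7 against ND ICHD7, as did 10874 of all 20079 genes. The median of the 14 was −1.08, and 6 were lower at an unadjusted p under 0.05 in limma, beside 10.2% of all genes. Rnu1a1 averaged 57.3 ± 25.6 CPM in HSD ICHD7 and 135 ± 55.3 CPM in ND ICHD7 (log2 fold change −1.28, SE 0.377, adjusted p = 0.260). Gm22068 averaged 91.4 CPM in HSD ICHD7 and 214 CPM in ND ICHD7 (adjusted p = 0.269, limma). In the diet contrast without ICH, which chose the 4, all 14 were negative too, beside 7619 of 16787 genes. The median of the 14 was −0.57, and 10 were lower at an unadjusted p under 0.05, against 3.28% of all genes. Among the 14, Gm22317, Gm22634, Gm26444, Rnu1a1 and Gm22068 have the sequence of Gm25679 and can hold the same reads. Likeness to the 4 in that contrast can therefore be built in, and the counts only describe it. That contrast ranked the 4 high among U1 copies by choice, and after ICH their log2 fold changes (−0.95 to −0.70) lay above the median of the 14, a difference that was not tested. The 11 listed U1 copies on other chromosomes averaged 346 ± 132 CPM in HSD ICHD7 and 716 ± 322 CPM in ND ICHD7, and 1477 ± 89.6 CPM in HSD and 2066 ± 187 CPM in ND when summed.

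U2 snRNA pairs with the branch point of the intron after U1 has marked the splice site. Its 11 listed copies summed to 482 ± 159 CPM in HSD ICHD7 and 1091 ± 482 CPM in ND ICHD7, and to 1908 ± 171 CPM in HSD and 2354 ± 120 CPM in ND (SD, n = 3 each). After ICH 10 of 11 had a negative diet log2 fold change, as did 10874 of all 20079 genes. Of the 11, 7 were lower at an unadjusted p under 0.05, beside 10.2% of all genes. Without ICH 11 were negative, beside 7619 of 16787 genes, and 7 were lower, beside 3.28% of all genes. Gm24950, the most abundant U2 copy, averaged 167 CPM in HSD ICHD7 and 441 CPM in ND ICHD7 (log2 fold change −1.46, adjusted p = 0.269), and Rnu2-10 averaged 102 ± 44.0 CPM in HSD ICHD7 and 242 ± 111 CPM in ND ICHD7 (−1.20, adjusted p = 0.267, limma). The 4 U1 genes over the U2 copies stood at 1.28, 2.18 and 1.52 in HSD ICHD7, against 1.62, 1.66 and 0.948 in ND ICHD7, so that the diets overlapped. Without ICH the same ratio was 1.28 to 1.55 in HSD, against 1.69 to 2.25 in ND, which describes the contrast that chose the genes.

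**Figure D5:**
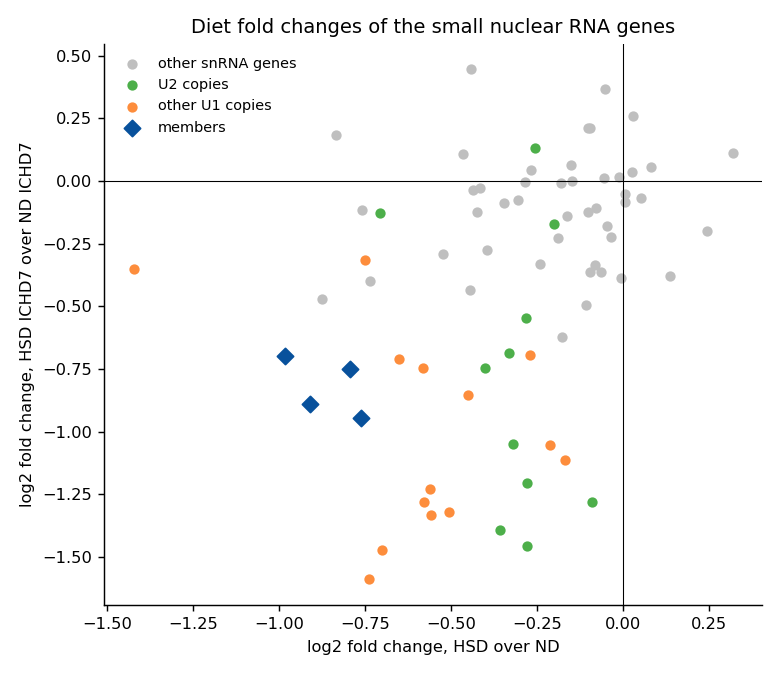
Log2 fold change of HSD ICHD7 over ND ICHD7 against that of HSD over ND for the 75 snRNA genes tested in both comparisons, with the 4 U1 genes as diamonds, other U1 copies in orange and U2 copies in green. The 4 stand to the left, where the choice put them (−0.98 to −0.76 without ICH), and between −0.95 and −0.70 after ICH, while several U1 and U2 copies lie lower after ICH.

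Over all 87 other snRNA genes tested after ICH, 66 had a negative log2 fold change, beside 10874 of all 20079 genes. The median of the 87 was −0.23, beside −0.03 over all genes. At an unadjusted p under 0.05 in limma 14 were lower and 0 higher, beside 10.2% of all genes lower and 5.42% higher. Among those 14 were 6 U1 copies and 7 U2 copies. None of the 87 passed an adjusted p under 0.05. Without ICH 64 of 74 were negative and 20 were lower, beside 3.28% of all genes. Among the genes with an Rnu symbol and Rn7sk, 8 of 15 were lower after ICH (10.2% of all genes), with Rnu1a1 first and the U3 genes Rnu3b2 (−0.91, adjusted p = 0.260) and Rnu3b1 (−0.62, adjusted p = 0.260) next. Rn7sk, the RNA that holds the elongation factor P-TEFb inactive, is transcribed by RNA polymerase III, and it is named here after its values were seen. It averaged 8553 ± 690 CPM in HSD ICHD7 and 16483 ± 6840 CPM in ND ICHD7, against 13036 ± 1081 CPM in HSD and 12639 ± 737 CPM in ND (SD, n = 3 each), so that, unlike the U1 genes, it was not lower in ND ICHD7 than in ND on average.

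Small nucleolar RNAs direct the modification of ribosomal RNA, and small Cajal body RNAs (scaRNAs) that of snRNA, U1 and U2 included. With p unadjusted and under 0.05 after ICH, 58 of 268 small nucleolar RNA genes were lower and 1 higher (median −0.21), and of 15 scaRNA genes 7 were lower and 0 higher (median −0.44), beside 10.2% of all genes lower and 5.42% higher. Gm22988, annotated as a small nucleolar RNA, had the smallest p of its list, with 60.9, 53.4 and 53.6 CPM in HSD ICHD7, against 171, 245 and 139.8 CPM in ND ICHD7 (log2 fold change −1.68, SE 0.184, adjusted p = 0.114, limma), so that the diets did not overlap. Gm22422 (−1.39) and Gm25835 (−1.25) followed among the small nucleolar RNA genes, and Gm22442 (−1.06), Gm25395 (−0.92) and Scarna6 (−0.47) led the scaRNA genes, all with an adjusted p above 0.05.

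None of the genes for proteins of the U1 particle had p below 0.05 before adjustment after ICH. Snrnp70, which encodes the 70K protein of the U1 particle, averaged 171 ± 17.3 CPM in HSD ICHD7 and 168 ± 19.6 CPM in ND ICHD7 (log2 fold change 0.03, SE 0.124). Snrpa, for the A protein of the particle, had a log2 fold change of 0.03, and Snrpc, for its C protein, averaged 25.3 CPM in HSD ICHD7 and 25.1 CPM in ND ICHD7. All 7 Sm protein genes listed had a positive value, 0.09 to 0.30, with Snrpe at 0.30, Snrpg at 0.30 and Snrpb at 0.16, and none passed. Of all 20079 genes, 9205 were positive after ICH, and without ICH 4 of the 7 Sm protein genes were positive. Of 10 genes for splicing factors that join U1, such as Prpf40b (−0.22), Tial1 (0.15) and Luc7l (0.11), none passed, and without ICH no gene of these 3 lists did. A p above the threshold does not show that their levels were equal.

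Among genes for the making of snRNA none was lower by that measure after ICH. Of 14 genes for factors at snRNA promoters none passed an unadjusted p under 0.05 after ICH, with Zc3h8, a little elongation complex subunit, at 0.32, Zfp523 at 0.22 and Snapc3, a SNAPc subunit, at −0.23. Of 14 Integrator genes 3 were higher and 0 lower by the same threshold, against 5.42% of all genes higher. These were Ints10 (0.27), Ints3 (0.26) and Ints14 (0.26), with adjusted p of 0.278 to 0.316 in limma. Of 19 genes for snRNA assembly and export, Xpo1, the nuclear export receptor, was higher with p unadjusted (0.27, adjusted p = 0.300, limma) and none was lower, with Gemin6 at 0.41 and Ncbp2 at 0.27. Without ICH 1 of 14 Integrator genes and 1 of 19 genes for assembly and export were higher and none lower. By the same threshold 613 of all 16787 genes were higher without ICH.

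The protein-coding genes beside the cluster had nearly level means. Eapp averaged 24.6 ± 3.05 CPM in HSD ICHD7 and 24.7 ± 6.32 CPM in ND ICHD7, and 24.0 ± 2.22 CPM in HSD and 22.3 ± 3.62 CPM in ND. Snx6 averaged 38.7 ± 2.56 CPM in HSD ICHD7 and 38.6 ± 7.76 CPM in ND ICHD7, and 41.3 ± 1.63 CPM in HSD and 39.98 ± 3.32 CPM in ND (SD, n = 3 each). Of the 6 listed genes within 250 kb that are not snRNA genes, none had p below 0.05 before adjustment, with or without ICH. The farthest shifts after ICH were those of Baz1a, a chromatin remodeller subunit (0.40), and Gm27014, a processed pseudogene (0.37). Cfl2, a protein-coding gene, was the only 1 of the 6 with a negative value (−0.26). It had 10.2, 10.9 and 10.5 CPM in HSD ICHD7, against 12.6, 12.4 and 13.1 CPM in ND ICHD7. Cfl2 was thus lower in every HSD ICHD7 library than in every ND ICHD7 library, as were 13.3% of all genes. Baz1a was higher in every HSD ICHD7 library, with 184, 200 and 309 CPM, against 168, 164 and 178 CPM in ND ICHD7. The share of all genes higher in that way is not given here.

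Likeness to the summed log2 levels of the 4 was measured for 16683 genes as the smaller of Pearson's r over the 6 libraries without ICH and over the 6 with ICH. The most alike was 4930432B10Rik, annotated as a long noncoding RNA with a bidirectional promoter, at a mean of 1.43 CPM (smaller r 0.946), followed by Gm22317 (0.921) and Gm22634 (0.920) of the cluster, Tspyl4, a protein-coding gene at 5.95 CPM (0.906), and Gm26232, a U1 copy on chromosome 3 (0.890). Of the 5 most alike 3 were snRNA genes, and of the 40 most alike 8 were. Beside the 16683 genes compared, 75 snRNA genes, the 4 included, were tested in both diet comparisons. With 6 points each, such values describe these libraries and are given with no test.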

How the data were processed

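RNA-seq was performed on HSPCs in 12 libraries of 4 groups. Alignment by the authors used Rsubread and mm10. They counted reads per gene with featureCounts and deposited CPM values scaled by TMM with edgeR 3.24.3. Their stated filter, above 10 CPM in at least 3 samples, was not applied to the files. The library kit marks strand, but whether counting used it and how it treated reads with several matches is not given in the sources used here. CPM values were whole multiples of 1 read (tolerance 0.01 of a read) for 100% of values, less certainly in HSD replicate 2, and reads were recovered so. Gene types, coordinates and transcript sequences came from GENCODE M21 (GRCm38), which held 20511 of 20792 IDs.

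The 4 genes and all gene lists were chosen with earlier results of these data known. Diet comparisons used limma 3.58.1 with a variance trend on log2(CPM + 0.5), two-sided, keeping genes that had 10 or more reads in 3 or more of the libraries compared, with Benjamini-Hochberg adjustment over all genes. The 4 genes were tested only after ICH. Named were the 4 genes and, for each list except those of other snRNA genes, U1 copies and U2 copies, the 3 genes with the smallest p after ICH. Also named were the 6 most abundant other snRNA genes, further U1 copies, the genes beside the cluster and the 5 most alike. Alternatives were edgeR 4.0.16 and DESeq2 1.42.0 on recovered reads, pseudocounts of 0.1 and 1, other scalings and filters, a replicate block, 1 fit of 12 libraries, and leaving out libraries. Sequences were aligned with Biopython 1.88. limma was tested on simulated data. Nothing says that libraries with ICH come from separate animals, so p-values there measure only the spread between these libraries. Libraries of a group differed by more than sampling noise.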

Additional observations from a re-analysis of the deposited data

How the results depend on the processing

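The 4 genes kept a negative diet log2 fold change after ICH, and an adjusted p above 0.05, under all 10 other settings and all 6 fits with a library left out. Across the 10 settings the values were −0.99 to −0.89 (Gm25679), −0.94 to −0.84 (Gm23804), −0.80 to −0.71 (Gm24305) and −0.75 to −0.65 (Gm22513). With a library left out they were −1.27 to −0.53, −1.22 to −0.49, −1.04 to −0.37 and −0.93 to −0.32 for the same genes, and the adjusted p was 0.259 to 0.613 over the 4 genes. Of the 4, those with an unadjusted p under 0.05 numbered 1 by DESeq2 (Gm22513), beside 1292 of 20079 genes lower. Gm25679 and Gm23804, the 2 that limma called, had p of 0.0995 and 0.0706 by DESeq2. The count was 4 without TMM scaling (2077 of 20079 genes lower) and 0 with the filter the study states (397 of 10084 lower). It was 4 in 1 fit of all 12 libraries (2578 of 20079 lower). With a library left out it was 0 to 4, beside 1200 to 2621 genes lower.

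Genes at an adjusted p under 0.05 after ICH numbered 98 by DESeq2 and 319 in the fit of all 12 libraries, and those at an unadjusted p 1288 with the study's filter and 1896 to 3866 with a library left out. Without ICH, 13 genes passed an adjusted p, and 65 did by DESeq2, 1 with no filter, 0 in the fit of all 12 libraries, 91 without ND replicate 1 and HSD replicate 2, and 8 to 22 with a library left out. At an unadjusted p 1802 passed without those libraries and 624 to 1454 with a library left out. The cause of these shifts was not tested. The summed CPM of the 4 genes kept its order of groups without TMM scaling, and ratios between copies within a library do not depend on scaling. Gm23804 moved to −0.66 without ND replicate 1 and HSD replicate 2.

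Same-numbered libraries did not deviate together (correlations −0.19 to 0.08), so that the numbers are not read as pairs. With a replicate block 4 of the 4 genes had an unadjusted p under 0.05 after ICH, beside 1915 of 20079 genes lower. At an adjusted p under 0.05 with that block, 0 genes passed after ICH and 16 without ICH. Reads that fit several U1 copies, 3 libraries per group and the spread within the ICH groups limit what these values can tell about single copies.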
